A study of Canis lupus familiaris with 10 samples.

Results

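cfa-miR-21, the canine miR-21, is 1 of the 320 miRNAs with read counts in these data, and its row was followed through all 10 libraries. Small RNA was sequenced from fresh-frozen lymph nodes, with 1 library per dog. DLBCL (DLBCL1 to DLBCL6) comprised nodes with diffuse large B-cell lymphoma, a tumor of mature B cells, which stained for 1 or more B cell proteins (CD79a, Pax5 or CD20, not the same in every tumor) and not for the T cell protein CD3. Healthy (Healthy2 to Healthy5) comprised histologically normal nodes. The dogs with DLBCL were clinical patients of several breeds and both sexes, biopsied under anesthesia, and the Healthy dogs were young purpose-bred female hound crosses, sampled after euthanasia. Origin, breed and sampling therefore cannot be told apart from diagnosis, and males occur in DLBCL only. The study lists ages for the Healthy dogs alone, so age cannot be separated from diagnosis either. The libraries held 10686441 to 25784861 miRNA reads in DLBCL and 30432969 to 34709421 in Healthy.

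miR-21 is a short RNA that guides Argonaute proteins to messenger RNAs with sites matching its seed, the bases near its 5′ end, and lowers their output. Its known targets include PDCD4, an inhibitor of translation. STAT3 and NF-kB signaling raise its transcription, it is abundant in many tissues, including immune cells and fibroblasts, and forced expression in mice causes a B cell lymphoma that regresses once the expression is shut off. In the annotation of the dog assembly UU_Cfam_GSD_1.0, MIR21 (gene ID 100886143) is on chromosome 9 and overlaps 0 other listed genes. Its neighbors are PTRH2, which encodes a peptidyl-tRNA hydrolase, and LOC119873309, a long noncoding RNA, and TUBD1, which encodes delta-tubulin, is the next protein-coding gene on the latter side.

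miR-21 was among the most abundant miRNAs of every node. Averaged over the 10 libraries it took 13.5% of the miRNA reads, after miR-148a with 43.2% and before miR-99a with 5.52%, let-7f with 4.89% and let-7g with 3.44%. It held rank 2 behind miR-148a in 9 libraries and rank 1 in DLBCL6. miR-148a acts on DNMT1 and, in B cells, on regulators of tolerance. miR-99a acts on the growth kinase mTOR, and the let-7 family on RAS and MYC. The miRNA at rank 3 was miR-99a in DLBCL1, DLBCL2, DLBCL5, Healthy2, Healthy4 and Healthy5, let-7f in DLBCL3, DLBCL4 and Healthy3, and miR-143 in DLBCL6. miR-21 had between 1.12 and 4.48 times the reads of the miRNA at rank 3, the lowest in DLBCL3 and the highest in DLBCL6.

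**Figure D1:**
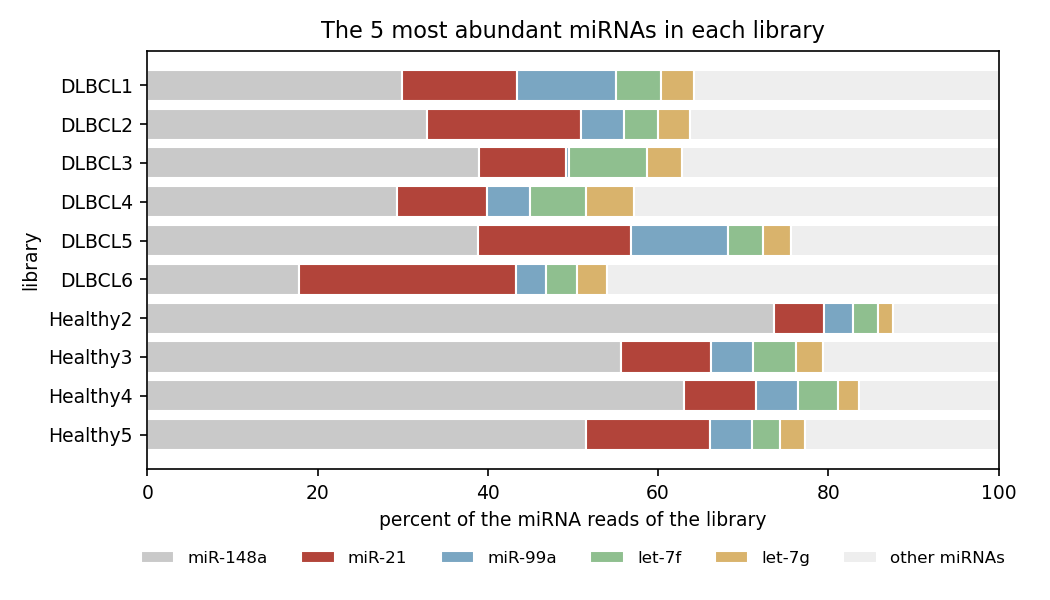
Percent of the miRNA reads of each library (horizontal axis) that fell on the 5 miRNAs with the highest mean share and on all other miRNAs (vertical axis, libraries). The 5 together held 54.0 to 75.6% of the reads in DLBCL and 77.3 to 87.5% in Healthy, and miR-148a was the widest of these 5 segments except in DLBCL6.

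The share of miRNA reads was the first scale, since it is that of the deposited TPM values and needs no normalization factor. miR-21 made up 13.6% of the reads in DLBCL1, 18.1% in DLBCL2, 10.2% in DLBCL3, 10.5% in DLBCL4, 18.0% in DLBCL5 and 25.4% in DLBCL6. In Healthy2, Healthy3, Healthy4 and Healthy5 it made up 5.95%, 10.5%, 8.43% and 14.6%. The groups overlapped, with DLBCL1, DLBCL3 and DLBCL4 inside the Healthy range and the other 3 DLBCL libraries above it. The DLBCL mean of 15.95% ± 5.77 (SD, n = 6) exceeded the Healthy mean of 9.87% ± 3.66 (SD, n = 4), but not beyond the spread between dogs. The difference of 6.08 percentage points had p = 0.0952 in a two-sided exact permutation test over the 210 assignments of the libraries, which cannot go below 0.00952. In bulk tissue, a change in the number of cells that hold a miRNA and a change in its amount per cell cannot be told apart.

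The share of one miRNA moves with the shares of the rest, and miR-148a took 17.8 to 39.0% of the miRNA reads in DLBCL and 51.5 to 73.6% in Healthy. These ranges of share did not overlap, but how many other miRNAs had shares without overlap was not tested. With the edgeR scaling used below, the ranges of miR-148a did overlap. On that scaling the log2 fold change of miR-148a was -1.58 (standard error 0.49, adjusted p = 0.0806 from edgeR). By the thresholds given there, miR-148a was not called as different between the groups. Among the reads of all miRNAs other than miR-148a, miR-21 made up 19.3%, 26.9%, 16.7%, 14.8%, 29.4% and 30.9% in DLBCL1 to DLBCL6. The corresponding values in Healthy2 to Healthy5 were 22.5%, 23.7%, 22.8% and 30.1%. On this scale the direction was opposite, with a DLBCL mean of 23.0% ± 6.90 (SD, n = 6) and a Healthy mean of 24.8% ± 3.58 (SD, n = 4). The difference of -1.77 percentage points had p = 0.638 (two-sided exact permutation test).

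Reads counted on miRNAs averaged 55.5% of the mapped small RNA reads that the study lists in DLBCL and 85.0% in Healthy. As a share of those mapped reads, the DLBCL mean of miR-21 was 9.15% ± 4.85 (SD, n = 6) and the Healthy mean 8.35% ± 3.04 (SD, n = 4), with p = 0.848 (two-sided exact permutation test). The mean share was thus higher in DLBCL on 2 of these 3 scales and lower on the other, and no difference passed the exact permutation test at 0.05.

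Counts were next scaled with edgeR's TMM factors, which compare each library with a reference library over most miRNAs, and are given as CPM, the count scaled to a common library size. miR-21 measured 121187 CPM in DLBCL1, 128608 in DLBCL2, 123898 in DLBCL3, 60026 in DLBCL4, 257263 in DLBCL5 and 125035 in DLBCL6. Healthy2 to Healthy5 measured 117402, 118871, 134710 and 131515 CPM. DLBCL1, DLBCL2, DLBCL3 and DLBCL6 fell inside the Healthy range, DLBCL5 above it and DLBCL4 below it. The DLBCL mean was 136003 ± 64834 CPM (SD, n = 6) and the Healthy mean 125625 ± 8765 CPM (SD, n = 4). DLBCL5 measured 2.05 times and DLBCL4 0.478 times the Healthy mean, and they differed from each other 4.29-fold.

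**Figure D2:**
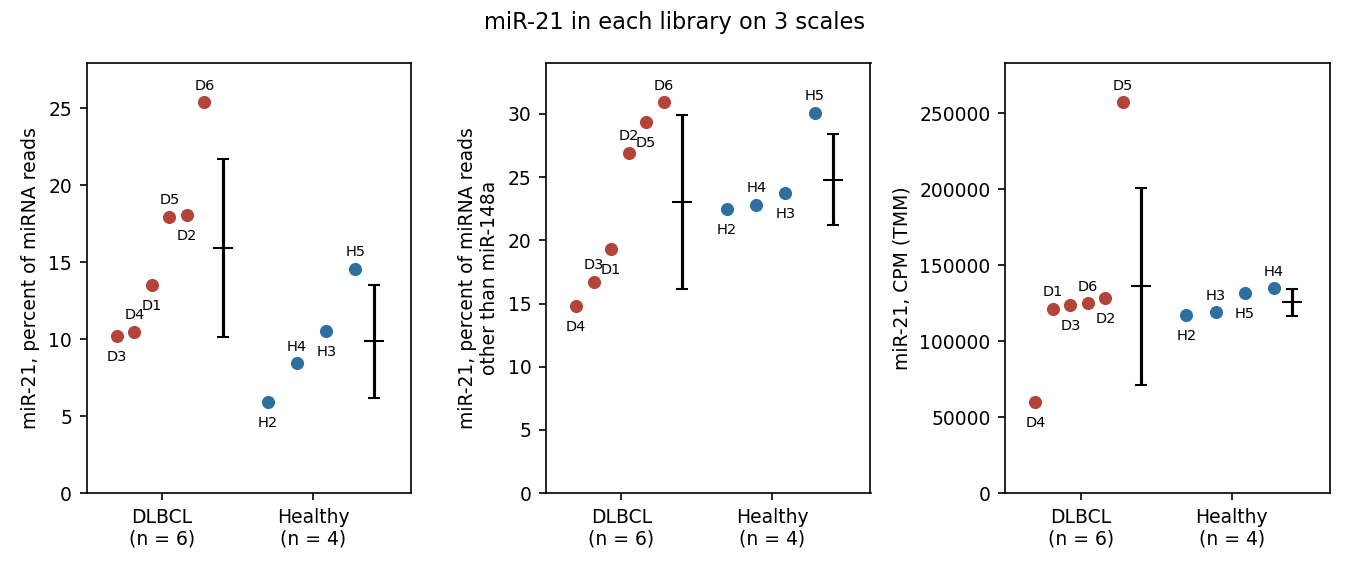
miR-21 in each library (points, D for DLBCL and H for Healthy) with the mean and SD of each group (bars), as percent of miRNA reads, as percent of miRNA reads other than miR-148a, and in CPM after TMM scaling. The group means were 15.95% and 9.87% on the first scale, 23.0% and 24.8% on the second, and 136003 and 125625 CPM on the third, where DLBCL5 and DLBCL4 lay outside the range of the rest.

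miR-21 was not a differentially expressed miRNA (DEM), for which the adjusted p had to be below 0.05 and the fold change above 2. DLBCL exceeded Healthy by 0.11 on the log2 scale (standard error 0.35, adjusted p = 0.859 from edgeR's quasi-likelihood test). The fold was 1.08 with a 95% confidence interval of 0.637 to 1.84, so a 2-fold change in either direction lay outside the interval under TMM scaling. The plain mean of log2 CPM was 16.93 in DLBCL and 16.94 in Healthy, the opposite direction, and the exact permutation test on these values gave p = 0.924. For comparison, edgeR called 14 of the 247 miRNAs tested (5.67%), of which 9 (3.64%) rose and 5 (2.02%) fell in DLBCL, and the median log2 fold change was 0.13.

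The level of single libraries depended on how the counts were scaled. Beside TMM, 6 other scalings were used: DESeq2's size factors (RLE), the upper quartile, total miRNA reads, that total without miR-148a, mapped small RNA reads, and the geometric mean of miR-361, miR-101 and miR-29c, the miRNAs that served as references in the RT-qPCR of the study. DLBCL5 exceeded DLBCL4 under all 7, by 1.71-fold with total miRNA reads and by 7.31-fold with the reference miRNAs. DLBCL5 was the highest and DLBCL4 the lowest of the 10 libraries under TMM, RLE, the upper quartile and the reference miRNAs. DLBCL6 was the highest under the other 3 scalings and held rank 5, 9, 5 and 9 under these 4.

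**Figure D3:**
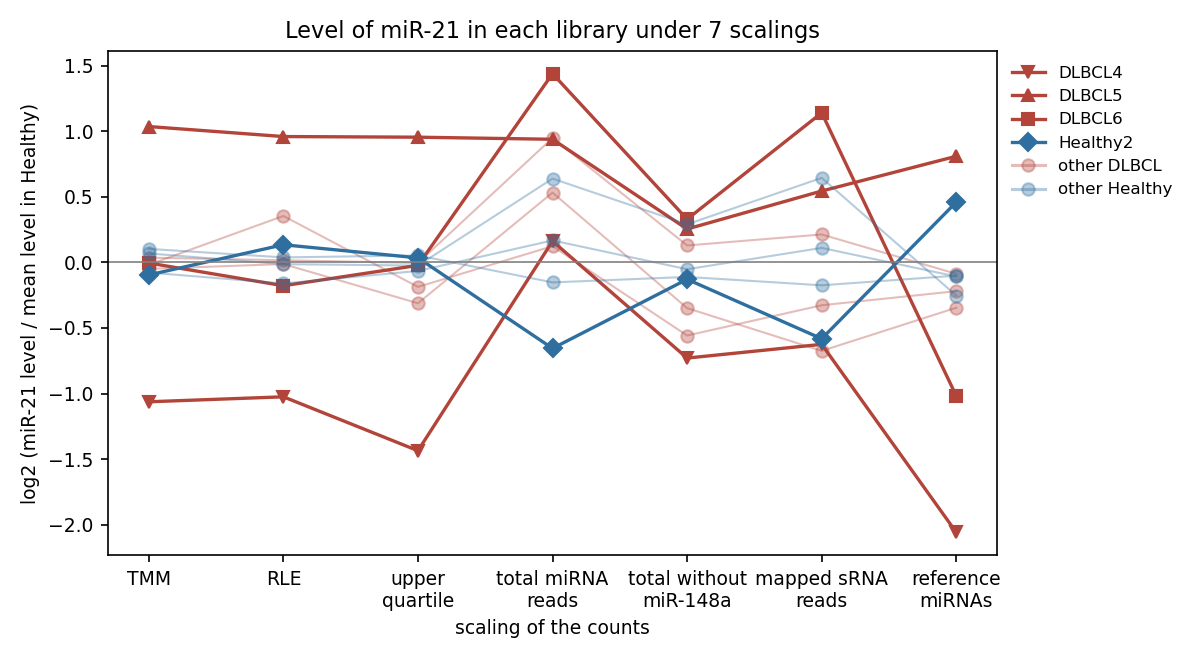
Level of miR-21 in each library (lines) relative to the mean of Healthy, on a log2 scale (vertical axis), under 7 scalings of the counts (horizontal axis). DLBCL5 stayed above DLBCL4 throughout, while DLBCL6 ranged from 1.44 above the Healthy mean with total miRNA reads to -1.02 with the reference miRNAs.

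The direction of the difference between the groups depended on the scaling as well. With the total without miR-148a it was -0.11 for miR-21 and 0.04 for the median of all miRNAs tested (log2). With total miRNA reads its log2 fold change was 0.69 (standard error 0.32, unadjusted p = 0.0495 and adjusted p = 0.146 from edgeR), where the median of all miRNAs tested was 0.82. With the reference miRNAs it was -0.27 (standard error 0.51), where the median was -0.32. Relative to the median of all miRNAs, the log2 fold change of miR-21 stayed between -0.14 and 0.05 under the 7 scalings. Between 49.0% and 57.9% of the miRNAs tested had a higher log2 fold change than miR-21, which places it at the middle of the distribution under each scaling. A scaling shifts all miRNAs of a library together, so the 7 scalings are not separate tests of this position.

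**Figure D4:**
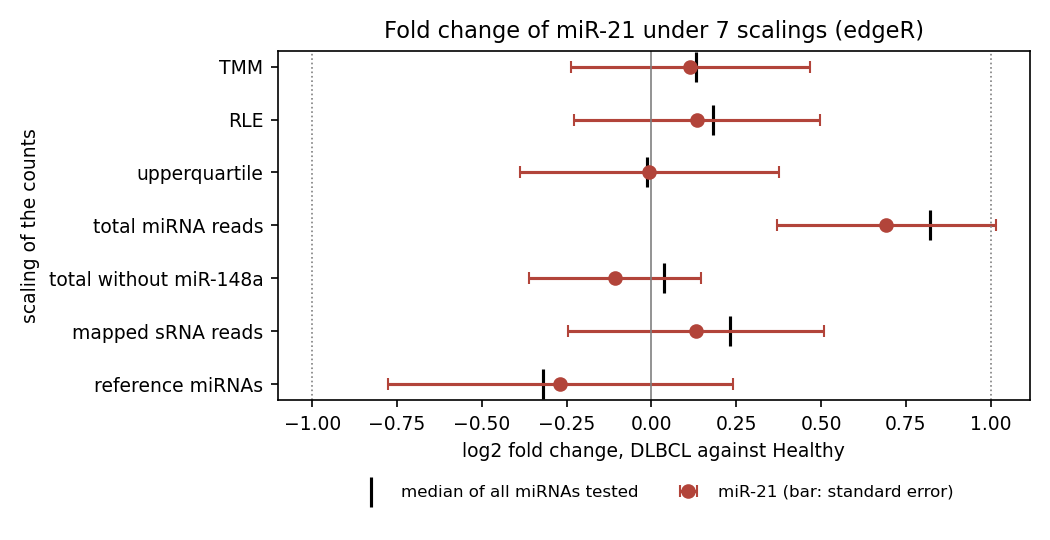
Log2 fold change of miR-21 between DLBCL and Healthy (horizontal axis; points with standard errors, edgeR) under 7 scalings (vertical axis), with the median of all miRNAs tested as a black tick and a 2-fold change as dotted lines. The points ranged from -0.27 to 0.69 and lay within 0.15 of the median of all miRNAs.

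The quality of the reads differed between libraries too. The study lists a higher share of bases at Q30 for DLBCL1, DLBCL2, DLBCL3 and DLBCL5 than for DLBCL4, DLBCL6 and Healthy. With this grouping as a covariate the log2 fold change of miR-21 was -0.44 (adjusted p = 0.689 from edgeR), and with DLBCL4 and DLBCL6 alone against Healthy it was -0.45 (adjusted p = 0.469 from edgeR). The group of higher quality holds DLBCL libraries only, so no comparison within it could be made.

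Ratios to other miRNAs of the same library need no normalization, and 9 denominators were used. Against miR-148a, the geometric mean was 0.499 miR-21 reads per miR-148a read in DLBCL (n = 6) and 0.155 in Healthy (n = 4). In DLBCL1 to DLBCL6 the ratio was 0.453, 0.552, 0.262, 0.357, 0.463 and 1.42. In Healthy2 to Healthy5 it was 0.0808, 0.189, 0.134 and 0.283, and DLBCL3 was the only DLBCL library inside this range. The 3.22-fold difference (log2 1.69) had p = 0.0190 in the two-sided exact permutation test and an adjusted p of 0.171 over the 9 ratios. It had the lowest p of the 9 ratios. With 6 against 4 libraries, a lone ratio among 9 cannot reach an adjusted p below 0.0857 in the exact permutation test. miR-148a itself was not a DEM (log2 -1.58, edgeR adjusted p = 0.0806).

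miR-26a, which represses the histone methyltransferase EZH2, gave the ratio with the smallest spread in Healthy among the 9. Healthy2 to Healthy5 had 4.62, 4.32, 4.79 and 5.01 miR-21 reads per miR-26a read. The ratio was 6.64, 6.91, 9.65, 2.56, 11.7 and 8.55 in DLBCL1 to DLBCL6. DLBCL4 lay below the Healthy range and the other 5 DLBCL libraries above it. DLBCL had a mean log2 ratio of 2.80 ± 0.77 (SD, n = 6) and Healthy one of 2.23 ± 0.09 (SD, n = 4), a difference of 0.57 (exact permutation p = 0.190, adjusted p = 0.571). Without DLBCL4 the difference was 0.86, and with DLBCL4 and DLBCL6 alone against Healthy it was -0.0016. Leaving out the only DLBCL library below Healthy separates the groups completely. The exact permutation p is then fixed at 0.0159 (adjusted p = 0.143), the smallest that 5 against 4 libraries give, and tests nothing further.

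miR-191, a miRNA of blood and many other cells, gave a difference in the opposite direction, which did not pass the test. miR-21 had 12.3 reads per miR-191 read in DLBCL and 22.0 in Healthy (geometric means), a log2 difference of -0.84 (exact permutation p = 0.133, adjusted p = 0.571). Healthy ranged from 17.7 to 25.6, DLBCL5 with 35.1 was above this range and the other 5 DLBCL libraries, from 4.64 to 17.4, were below it. Without DLBCL5 the log2 difference was -1.14. Leaving out the only DLBCL library above Healthy again fixes the exact permutation p at its smallest value, 0.0159 (adjusted p = 0.143), which tests nothing further.

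The remaining ratios gave smaller differences, none beyond the spread between dogs. Against miR-155, a B cell miRNA transcribed on activation, the log2 difference was -0.26 (exact permutation p = 0.619), and miR-21 had 8.25 to 39.4 reads per miR-155 read in DLBCL and 16.8 to 32.2 in Healthy. The log2 difference was -0.22 against miR-142, which blood cells of all kinds express, 0.28 against miR-16, which represses BCL2, and 0.28 against let-7f. Against the 3 reference miRNAs together it was -0.49 (exact permutation p = 0.429). Of these 3, miR-29c was itself higher in DLBCL under TMM, though not a DEM (log2 1.92, edgeR adjusted p = 0.109). miR-361 had a log2 fold change of -0.24 and miR-101 one of -0.03. This ratio moves with its denominator as well as with miR-21. The RT-qPCR of the study, relative to the same 3, measured miR-21 lower in DLBCL, with an adjusted p that missed the study's threshold. The study does not number all Healthy samples of its RT-qPCR as it numbers the libraries, so the dogs may differ. The smallest difference was that against miR-143, a miRNA of smooth muscle and fibroblasts, at 0.16 (exact permutation p = 0.600). Here 5 of the 6 DLBCL libraries lay in the Healthy range, and DLBCL4 and DLBCL5, which differed 4.29-fold in CPM, had 3.84 and 3.72 miR-21 reads per miR-143 read.

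**Figure D5:**
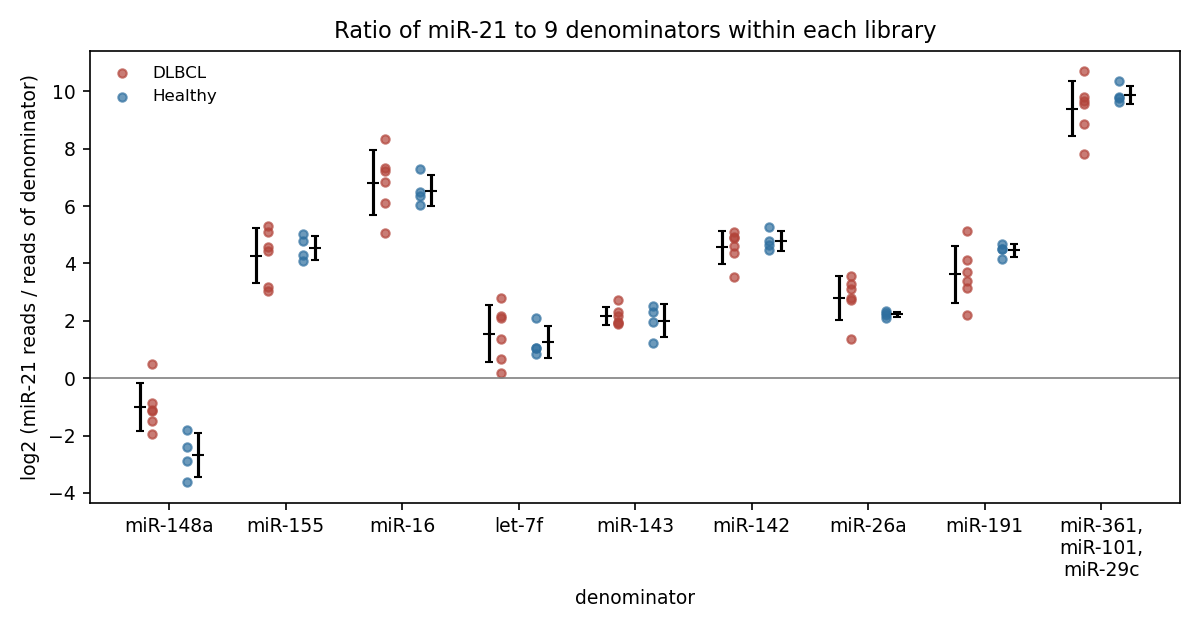
Log2 ratio of miR-21 reads to the reads of 9 denominators (horizontal axis) in each library (points), with the mean and SD of each group beside them (bars). Healthy spanned 2.11 to 2.33 for miR-26a, where DLBCL spanned 1.35 to 3.54, and the group means were farthest apart for miR-148a, by 1.69.

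The SD of TMM-scaled log2 CPM of miR-21 was 0.66 in DLBCL and 0.10 in Healthy. The mean absolute deviation from the group median was 0.37 in DLBCL and 0.09 in Healthy, and the difference of 0.28 had p = 0.667 (two-sided exact permutation test). The DLBCL spread rested on DLBCL4 and DLBCL5, since the other 4 DLBCL libraries held 121187 to 128608 CPM. Under total miRNA reads the coefficient of variation was 36.2% in DLBCL and 37.1% in Healthy, against 47.7% and 6.98% under TMM. Over the 247 miRNAs tested, the median SD was 1.07 in DLBCL and 0.54 in Healthy. miR-21 was among the steadier ones under TMM, with the rank 5 from the lowest SD in Healthy and 49 in DLBCL. Most of the 247 were far less abundant. Among the 12 miRNAs with a mean of at least 10000 CPM, its rank was 2 in Healthy and 4 in DLBCL. The median SD of these 12 was 0.38 in Healthy and 0.83 in DLBCL.

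The miRNAs whose TMM-scaled log2 CPM was most like that of miR-21, after the group means were subtracted, were miR-330, miR-24, miR-143, miR-99b and miR-128, out of 98 with at least 100 CPM on average. Pearson's r over the 10 libraries was 0.93 for miR-330 and 0.74 to 0.78 for the other 4, while Spearman's rho was 0.21 to 0.45. The likeness rested on DLBCL4 and DLBCL5, without which r was -0.30 to -0.06. miR-330 measured 44.8 CPM in DLBCL4, 1177 in DLBCL5 and 78.3 to 161 in Healthy. miR-143 measured 15649 CPM in DLBCL4, 69210 in DLBCL5 and 22967 to 50816 in Healthy. The points share their library and its scaling factor, so these values are descriptions only.

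Markers of other cells were read beside miR-21, whose level in a node can come from several kinds of cells. Of the 5 miRNAs of stroma and vessels (miR-143, miR-145, miR-199, miR-214 and miR-126), 0 were DEMs with edgeR, against 14 of all 247 tested, 0 had an unadjusted p under 0.05, and DESeq2 and limma called 0. All 5 had a log2 fold change below 0, as had 110 of the 247, and the median was -0.74. Their summed level was 18867 to 70627 CPM in DLBCL and 26911 to 55304 in Healthy. None was at 0 in all libraries. miR-223, of myeloid cells, measured 3.95 to 88.3 CPM in DLBCL and 16.9 to 38.6 in Healthy. miR-142 was present throughout, at 4234 to 7521 CPM in DLBCL and 3382 to 5461 in Healthy.

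Mature resting lymphocytes are marked by miR-150 and miR-342, which summed to 615 to 1802 CPM in DLBCL and 3503 to 15355 in Healthy. Most of this sum was miR-150. miR-342 was not a DEM (log2 -0.77, edgeR adjusted p = 0.223), with overlapping ranges of 62.6 to 129 CPM in DLBCL and 95.6 to 178 in Healthy. miR-150 was a DEM lower in DLBCL (log2 -2.97, edgeR adjusted p = 0.00687), where 2.02% of all miRNAs tested were, and was called in 32 of 35 alternative fits. Its call was lost without Healthy4 (adjusted p = 0.0551 from edgeR) and in the 8 libraries numbered 2 to 5, with the replicate block (0.0944) and without it (0.0574). Of the 3 red blood cell miRNAs (miR-451, miR-144 and miR-486), miR-451 and miR-486 were DEMs higher in DLBCL, where 3.64% of all miRNAs tested were, and were called in 35 and 21 of 35 alternative fits. The 3 had a sum of 5171 to 35566 CPM in DLBCL and 808 to 1070 in Healthy. The miRNAs of exocrine pancreas (miR-216a, miR-216b, miR-217 and miR-375) summed to 32.6 to 663 CPM in DLBCL and 916 to 1951 in Healthy. With edgeR 0 of these 4 were DEMs, and the log2 fold change was 2.04 for miR-375 and below 0 for the other 3. DESeq2 called 2 lower (15.4% of all miRNAs in either direction), limma-voom 3 (18.6%) and limma trend 2 (8.5%). The miRNAs of epithelium (18.5 to 130 CPM in DLBCL, 21.4 to 32.4 in Healthy) and of skeletal muscle (9.42 to 360 and 16.3 to 76.5 CPM) overlapped between the groups. The part of these cells in the miR-21 level was not tested.

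miR-590 is known from other mammals to carry the seed of miR-21 on its 5′ arm, and its row names no arm. It was far less abundant, with 206 to 11616 miR-21 reads per miR-590 read (median 2087). It measured 52.5, 61.0, 19.9, 291, 22.1 and 149 CPM in DLBCL1 to DLBCL6. In Healthy2 to Healthy5 it measured 38.0, 77.0, 65.2 and 215 CPM. DLBCL4, which had the lowest CPM of miR-21, had the highest of miR-590. The group means were 99.3 ± 105 (SD, n = 6) and 98.8 ± 79.1 CPM (SD, n = 4), and the log2 difference was 0.01 (standard error 0.77, 95% confidence interval -1.67 to 1.69, adjusted p = 0.996 from edgeR), an interval that holds 2-fold changes in both directions.

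miR-21 is one of the miRNAs that NF-kB, STAT3, toll-like receptor or CREB signals induce in immune cells. Of 11 such miRNAs tested, 0 were DEMs higher in DLBCL (3.64% of all miRNAs were) and 1 was lower (2.02% were), and 2 had an unadjusted p under 0.05, as had 66 of all 247 tested. The one lower was miR-146a, a feedback inhibitor of NF-kB signaling, whose DLBCL mean was 3660 ± 1493 CPM (SD, n = 6) and whose Healthy mean was 10051 CPM (n = 4), a log2 difference of -1.46 (standard error 0.35, edgeR adjusted p = 0.0397). It was called in 23 of 35 alternative fits, and its call was lost with total miRNA reads (log2 -0.80, adjusted p = 0.209 from edgeR) and with limma trend (log2 -0.86, adjusted p = 0.213). It was also lost with mapped small RNA reads, with read quality as a covariate, in the 8 libraries numbered 2 to 5 with or without the replicate block, and without DLBCL1, DLBCL6 or any one of the 4 Healthy libraries (adjusted p = 0.0537 to 0.187 from edgeR). Its relative miR-146b had 0.95 (standard error 0.57, adjusted p = 0.286), miR-155 had 0.44 (standard error 0.47, adjusted p = 0.568) and miR-9, whose targets include NFKB1, had 2.81 (adjusted p = 0.121), from edgeR. The median of the list was 0.44. DESeq2, which called 15.4% of all miRNAs, called 1 member higher and 1 lower. limma-voom, which called 18.6%, called 0 higher and 1 lower, and limma trend on TPM, which called 8.5%, called 0 in either direction, as did edgeR with total miRNA reads.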

How the data were processed

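Per the labels and the methods of the study, the authors cleaned small RNA reads, mapped them with Bowtie 0.12.9 (build CanFam3.1), removed repeats and other RNA classes, and counted known miRNAs with a modified miRDeep2. They deposited raw counts and TPM, the count as a fixed multiple of its share of miRNA reads (largest difference from recomputed values 4.55e-05). Depth is given by the miRNA reads per library. The counts were tested with edgeR 4.0.16 in R 4.3.3 (TMM, filterByExpr, quasi-likelihood test, Benjamini-Hochberg adjustment over 247 miRNAs), and DESeq2 1.42.0 and limma 3.58.1 served as alternatives, the latter also as a trend on log2(TPM + 1). Shares, ratios and spread were tested with two-sided exact permutation in scipy 1.17.1. Ranges of single markers and sums use TMM CPM. The code was tested on simulated data. Libraries of a group were checked for duplicates (lowest chi-squared per degree of freedom 2115).

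The miRNAs named are miR-21, the denominators of the ratios, the 5 with the highest mean share, the 5 most like miR-21 by Pearson's r, and the members of the lists. 1 list that had been planned is not reported here. Members and lists were chosen with earlier results of these data known. miRNAs with the seed of miR-21 were to be found by sequence, which was not analysed here, and miR-590 was taken from general knowledge. Replicates are separate dogs. Mapped small RNA reads and the read quality grouping come from the tables of the study, and arms are as the deposited names give them.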

Additional observations from a re-analysis of the deposited data

Results flagged for a closer look

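In the DLBCL group, the TMM-scaled level of miR-21 in DLBCL5, 257263 CPM, stood apart from the other 5 libraries by Dixon's criterion, with a gap to the nearest of them that was large against the range of the group. On the log2 scale it did not, since DLBCL4 lies at a like distance below. The log2 ratio of miR-21 to miR-26a in DLBCL4, 1.35, stood apart from the other 5 DLBCL libraries in the same way. These were 2 of 26 groups examined, and chance flags about 1 in 20.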

How the results depend on the processing

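miR-21 was not a DEM in any of the 35 alternative fits, with adjusted p-values of 0.146 to 0.997. Its log2 fold change turned negative with the upper quartile (-0.0067), the total without miR-148a (-0.11), the reference miRNAs (-0.27), at least 10 reads in every library (-0.10), limma-voom with sample quality weights (-0.035), read quality as a covariate (-0.44), the lower read quality group alone (-0.45), and DLBCL2 (-0.027) or Healthy3 (-0.0060) as TMM reference, an alternative added after seeing the data. Without each library in turn it ranged from -0.17 (without DLBCL5) to 0.32 (without DLBCL4). No cause of these changes was tested.

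With the replicate number as a block (8 libraries, numbers 2 to 5) the log2 fold change of miR-21 was 0.0080, that of miR-590 was -0.59 and the number of DEMs was 1. The same 8 libraries gave 1 DEM unpaired. Deviations of same-numbered libraries had correlations of 0.26, -0.01, -0.30 and -0.33, so the numbers were not taken as pairs.

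The count of 14 DEMs became 8 with RLE, 23 with total miRNA reads, 7 with mapped small RNA reads, 38 with DESeq2, 46 with limma-voom, 7 with read quality as a covariate, 46 in the lower read quality group, and 7 (DLBCL5), 8 (Healthy3) and 8 (Healthy4) with another TMM reference. Leaving out a library gave 1 (without Healthy4) to 23 (without DLBCL4), with 22 without DLBCL3, 6 without Healthy5, 5 without Healthy3, 3 without DLBCL1 and 2 without Healthy2.

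miR-590, never called, had negative values with the upper quartile (-0.16), the reference miRNAs (-0.61), no filter (-0.081), at least 10 reads (-0.042), limma-voom (-0.10) and TMM reference DLBCL1 (-0.063), DLBCL2 (-0.070), DLBCL3 (-0.13), Healthy2 (-0.033), Healthy3 (-0.036) or Healthy4 (-0.0015), and ranged from -0.68 to 0.62 without a library.

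The difference in share was 4.19 to 7.65 percentage points without each library and -1.77 without miR-148a. The miR-16 ratio turned to -0.97 in the lower read quality group and ranged from -0.028 (without DLBCL5) to 0.63. The miR-143 ratio ranged from -0.11 (without Healthy2) to 0.33 and was -0.077 with medians. The miR-142 ratio was 0.032 with medians, and the miR-26a ratio -0.0016 in the lower read quality group. Over the libraries left out, the log2 differences ranged from 1.37 to 1.97 (miR-148a), -0.47 to -0.02 (miR-155), 0.03 to 0.56 (let-7f), -0.34 to -0.02 (miR-142), 0.42 to 0.86 (miR-26a), -1.14 to -0.56 (miR-191) and -0.75 to -0.17 (reference miRNAs). The difference in spread passed p = 0.05 with the upper quartile (0.43, exact permutation p = 0.00952) and the total without miR-148a (0.27, exact permutation p = 0.0381), and was 0.14 to 0.35 without each library. The median of the signal-induced list was 1.02 with total miRNA reads, 0.045 with the reference miRNAs, -0.035 with limma-voom, -0.14 with the covariate, -0.15 in the lower group, 0.0080 with the block and 0.14 to 0.59 without each library.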
